A study of Trichoderma reesei RUT C-30 with 16 samples.

Results

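The genes described here are *eno1* (TrA1058C, TRIREDRAFT_120568), *ynk1* (TrA0344C, TRIREDRAFT_47221) and *glo2* (TrE0525C, TRIREDRAFT_102382) of the cellulase-producing fungus *Trichoderma reesei*. They were chosen by their identifiers as genes of central metabolism and are 3 of the 10008 genes in the deposited count tables. The study names all 3 as examples from its clusters of genes changed in these samples, with lower expression under DTT. Their fall with DTT is therefore not independent evidence. All 3 passed the filter on low counts that left 9101 genes for testing. Polyadenylated RNA of mycelium from 16 fed-batch cultures was sequenced, with 2 cultures for each of 8 groups. The strains were Rut-C30, a hyperproducer derived by mutagenesis from QM6a that carries a truncated *cre1* carbon catabolite repressor gene, and Δ*res2*, a transformant of Rut-C30 in which a hygromycin resistance cassette replaced the transcription factor gene *res2*. All groups therefore shared the Rut-C30 background, and Δ*res2* was represented by 1 transformant. Each strain was grown on a glucose feed (GC), on glucose with 10 mM dithiothreitol (DTT) for the last 2 h (GD), on a lactose feed (LC) and on lactose with the same DTT exposure (LD).

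Enolase, the product named by *eno1*, converts phosphoglycerate to phosphoenolpyruvate in the lower part of glycolysis. In *Saccharomyces cerevisiae* the gene called YNK1 encodes nucleoside diphosphate kinase, which passes phosphate from ATP to the other nucleoside diphosphates and so supplies the triphosphates for nucleic acid synthesis. GLO2 of the same yeast encodes glyoxalase II, which hydrolyses lactoylglutathione to lactate and glutathione in the removal of methylglyoxal, a toxic by-product of glycolysis. DTT reduces disulfide bonds, so that secreted proteins misfold in the endoplasmic reticulum, and lactose induces the cellulase genes of this fungus; the comparisons GD/GC and LD/LC address the first of these stresses and LC/GC and LD/GD the other.

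In the deposited annotation of the QM6a chromosomes, *eno1* lies on chromosome I from 3402116 to 3403670, with 5 exons that sum to 1317 bp of coding sequence. *ynk1* lies on the same chromosome from 995156 to 996295, with 7 exons and 768 bp of coding sequence, and *glo2* on chromosome V from 1736518 to 1737895, with 9 exons and 771 bp. All 3 are on the minus strand. The nearest gene models begin or end 815 and 947 bp from *eno1*, 150 and 741 bp from *ynk1* and 1095 and 539 bp from *glo2*, so that none of them overlaps another model.

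The libraries held 20351784 to 35679977 counts on genes. The duplicates of the lactose cultures were close, with correlations of log2 CPM (library-scaled counts) over all genes of 0.9929 to 0.9961, and those of the glucose cultures were farther apart, at 0.8822 to 0.9558. The biological coefficient of variation, the spread between duplicates beyond counting noise, was 0.355 with all 16 libraries, the fit that gives the tests below, 0.0711 with the 8 lactose libraries alone and 0.494 with the 8 glucose libraries alone. Only 1 gene, TrA1112W, had at least 100 normalized counts in every Rut-C30 library (2519 to 6853) and under 10 in every Δ*res2* library (at most 2.64), and the sources used here do not pair *res2* with an identifier of the count tables. The tables of the 4 Rut-C30 glucose libraries carry numbers of another series than all other tables. In glucose the strain and whatever this numbering marks therefore cannot be told apart. Within the parent strain the carbon source cannot be told apart from it either. Means over both strains that set lactose against glucose include the parent and share this limit in part. The Δ*res2* cultures have the same numbering on both sugars. Nothing states whether the 2 cultures of a group shared an inoculum, and p-values measure the spread between such cultures.

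Transcripts of the enolase and nucleoside diphosphate kinase genes were less abundant with DTT in both carbon sources and both strains. On lactose *eno1* was 16.2-fold lower in Rut-C30 and 13.98-fold lower in Δ*res2*, and *ynk1* was 16.4-fold and 16.8-fold lower. On glucose *eno1* was 5.74-fold and 3.79-fold lower, and *ynk1* 8.10-fold and 7.49-fold lower, in the same order of strains. The glyoxalase gene *glo2* had smaller differences, at 3.88-fold and 4.52-fold lower on lactose and 2.43-fold and 2.48-fold lower on glucose. In RNA from whole mycelium, fewer cells with a transcript and less of it per cell cannot be told apart.

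The counts of *eno1* are given first, as normalized counts, which are counts scaled to the mean effective library size. For Rut-C30 the GC cultures held 43604 and 20756, the GD cultures 8328 and 2889.8, the LC cultures 29552 and 35926, and the LD cultures 2087 and 1943. For Δ*res2* the GC cultures held 41153 and 54917, the GD cultures 11796 and 13564, the LC cultures 48833 and 47379.8, and the LD cultures 3623 and 3257. All cultures with DTT lay below all cultures without it, the highest with DTT at 13564 and the lowest without at 20756. The LD cultures of Rut-C30 lay below all GD cultures, and those of Δ*res2* below all but the second Rut-C30 GD culture.

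*eno1* was among the most abundant transcripts per length without DTT and ranked lower with it, more so on lactose than on glucose. In RPKM, reads scaled to coding length and library size, which allow genes to be compared, its level was 879.8 ± 442 in GC, 153 ± 105 in GD, 895 ± 123 in LC and 55.1 ± 2.8 in LD for Rut-C30 (mean ± SD, n = 2), and 1313 ± 266, 347 ± 34.2, 1315 ± 28.1 and 94.0 ± 7.1 for Δ*res2*. By these levels it ranked 183 and 153 of 9847 genes in GC of Rut-C30 and Δ*res2*, 184 and 128 in LC, 1069 and 541 in GD and 2264 and 1498 in LD. The order of the conditions, from high to low, was LC, GC, GD and LD in both strains, and LC and GC differed by less than their spread.

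For *ynk1* the Rut-C30 cultures held 24281 and 42704 normalized counts in GC, 3741 and 4531 in GD, 18612 in both LC cultures, and 1108 and 1164 in LD. In Δ*res2* the counts were 88081 and 33332 (GC), 13479 and 2739.8 (GD), 17592 and 18700.4 (LC) and 1103 and 1051 (LD). Every culture with DTT was again below every culture without it. The glucose duplicates of Δ*res2* stood 2.64-fold (GC) and 4.92-fold (GD) apart, whereas no lactose duplicates of this gene stood more than 1.06-fold apart.

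Per length, *ynk1* had the highest mean of the 3 genes in GC, at 1570 ± 611 RPKM in Rut-C30 and 2846 ± 1815 in Δ*res2*, where it ranked 85 and 47. Single cultures varied, and *eno1* over *ynk1* per length was 1.05 in the first Rut-C30 GC culture and 0.961 in the second of Δ*res2*. In LC *ynk1* stood at 873 ± 0.0049 and 851 ± 36.8 RPKM and ranked 186 and 229. In GD it fell to 194 ± 26.2 and 380.2 ± 356 RPKM, with ranks of 857 and 504, and in LD to 53.3 ± 1.9 and 50.5 ± 1.7 RPKM, with ranks of 2320 and 2389. The order was GC, LC, GD and LD in both strains. The 4 GC cultures, from 24281 to 88081 normalized counts, were all above the 4 LC cultures.

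The levels of *glo2* were lower and changed less. In normalized counts, the Rut-C30 cultures held 2363 and 5304 (GC), 1161 and 1999 (GD), 4645 and 4794 (LC) and 1255 and 1179 (LD). Those of Δ*res2* held 5229 and 4119.7 (GC), 1006 and 2761 (GD), 4967 and 4958 (LC) and 1062 and 1134 (LD). On lactose the 4 cultures without DTT (4645 to 4967) lay well above the 4 with it (1062 to 1255). On glucose the groups overlapped, since the second Δ*res2* GD culture at 2761 was above the first Rut-C30 GC culture at 2363. Per length *glo2* reached 220.4 ± 4.9 and 232 ± 0.31 RPKM in LC of Rut-C30 and Δ*res2*, and it ranked between 627 and 698 of 9847 without DTT and between 1708 and 2365 with it.

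**Figure D1:**
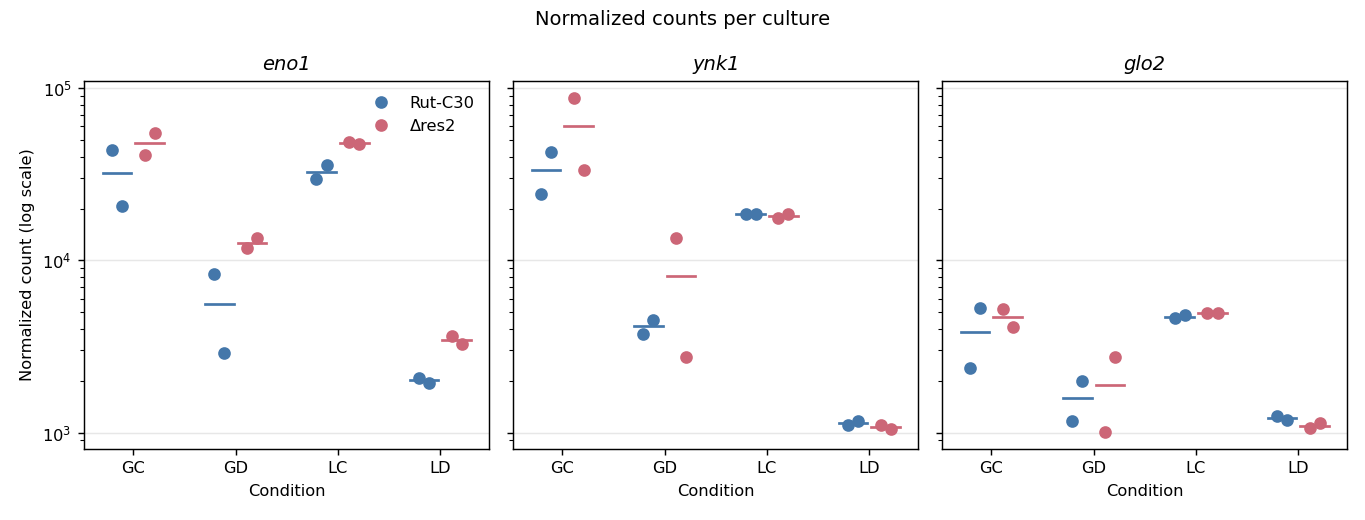
Normalized counts (log axis) of *eno1*, *ynk1* and *glo2* in each of the 16 cultures, by condition (GC, GD, LC, LD) and strain (Rut-C30 blue, Δ*res2* red); points are cultures, replicate 1 at the left, and lines are means of 2. The DTT conditions are the lower ones for all 3 genes, the lactose duplicates nearly coincide, and *eno1* is higher in Δ*res2* than in Rut-C30 on lactose.

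In LD/LC all 3 genes fell in both strains at an adjusted p under 0.05 (quasi-likelihood test of edgeR, Benjamini-Hochberg adjustment over 9101 genes), where 22.1% (Rut-C30) and 21.9% (Δ*res2*) of all genes tested fell. The log2 fold change of *eno1* was -4.02 ± 0.53 (SE) in Rut-C30 (adjusted p = 0.000247) and -3.81 ± 0.53 in Δ*res2* (adjusted p = 0.000332). That of *ynk1* was -4.03 ± 0.70 and -4.07 ± 0.71 (adjusted p = 0.00122 in both). At these values *eno1* and *ynk1* were among the genes that fell most, with 2.78% and 2.75% of all genes below them in Rut-C30. The changes of *glo2* were -1.96 ± 0.48 (adjusted p = 0.00745) and -2.18 ± 0.48 (adjusted p = 0.00461).

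Stricter limits define differentially expressed genes (DEGs), namely an adjusted p below 0.005, an absolute log2 fold change above 2 and 100 or more normalized counts on average. By these limits *eno1* and *ynk1* were DEGs of LD/LC in both strains and *glo2* in Δ*res2*, where 5.6% (Rut-C30) and 5.26% (Δ*res2*) of all genes were lower by the same limits. Within the 8 lactose libraries alone the falls were of the same size, with standard errors of 0.07 to 0.12 and adjusted p of at most 1.01e-12, where 43% and 41.4% of all genes tested fell. In the fit of all libraries the call of *glo2* in Rut-C30 was lost when 1 of the LD cultures of this strain was left out (-1.999, adjusted p = 0.0508 without replicate 1, and -1.90, adjusted p = 0.0593 without replicate 2).

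In GD/GC, *eno1* and *ynk1* fell in Rut-C30 and all 3 genes fell in Δ*res2*, where 19.2% and 21.7% of all genes tested fell. The log2 fold change of *eno1* was -2.52 ± 0.50 in Rut-C30 (adjusted p = 0.00337), which was also past the limits for DEGs (2.94% of genes), and -1.92 ± 0.49 in Δ*res2* (adjusted p = 0.00989), which was not (4.14% of genes). *ynk1* changed by -3.02 ± 0.67 (adjusted p = 0.00627) and -2.90 ± 0.67 (adjusted p = 0.00630), beyond 2 but short of the stricter p limit. The values of *glo2* were nearly equal, -1.28 ± 0.47 in Rut-C30 (adjusted p = 0.0545) and -1.31 ± 0.47 in Δ*res2* (adjusted p = 0.0434), so that the test threshold lay between them. The value in Rut-C30 passed with DESeq2 (-1.21, adjusted p = 0.0368) and voom (-1.20, adjusted p = 0.0285).

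These calls on glucose depended on the fit and on single cultures. With the glucose libraries alone, where 2.53% and 4.77% of all genes were called lower in Rut-C30 and Δ*res2*, none of the 3 genes passed within a strain (adjusted p of 0.0789, 0.0892 and 0.256 in Rut-C30 and 0.114, 0.0796 and 0.215 in Δ*res2* for *eno1*, *ynk1* and *glo2*), with log2 fold changes from -2.92 to -1.19. In the fit of all libraries the call of *ynk1* was lost in Rut-C30 without GD replicate 1 (-2.89, adjusted p = 0.0559) and in Δ*res2* without GC replicate 1 (-1.98, adjusted p = 0.0506), and its value in Δ*res2* became -4.44 without GD replicate 1. The call of *glo2* in Δ*res2* was lost without GC replicate 1 (-1.05), GC replicate 2 (-1.48) or GD replicate 1 (-0.72), and its value was -2.22 without GD replicate 2.

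Over both strains, the mean change with DTT on glucose was -2.22 ± 0.35 for *eno1* (adjusted p = 0.000352), -2.96 ± 0.47 for *ynk1* (adjusted p = 0.000411) and -1.30 ± 0.33 for *glo2* (adjusted p = 0.00669), with 29.8% of all genes called lower. On lactose it was -3.91 ± 0.37 (adjusted p = 1.03e-05), -4.05 ± 0.50 (adjusted p = 5.45e-05) and -2.07 ± 0.34 (adjusted p = 0.000373), with 30.3% called lower. These means kept their calls when any 1 library was left out. With the glucose libraries alone the means of *eno1* (-2.13, adjusted p = 0.0173) and *ynk1* (-2.88, adjusted p = 0.0151) passed and that of *glo2* (-1.20, adjusted p = 0.0728) did not, and 15.6% of all genes were called lower.

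**Figure D2:**
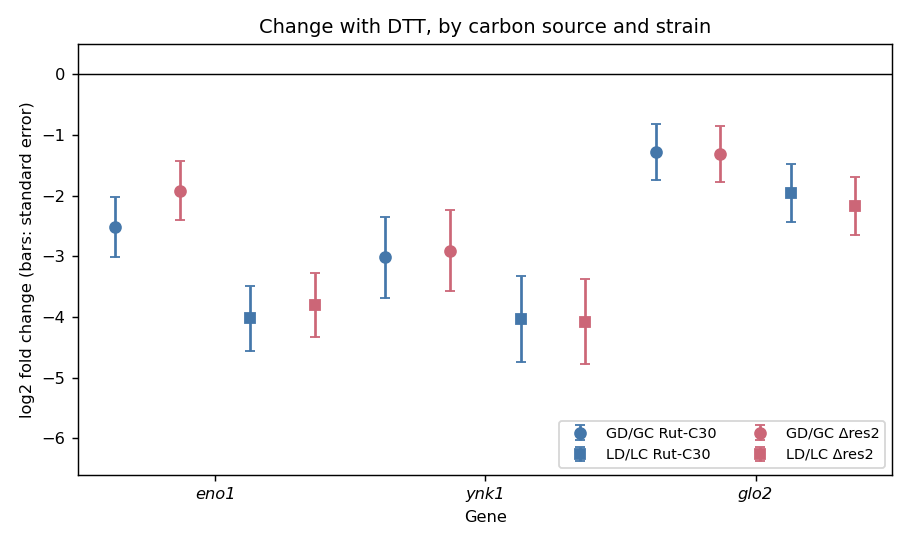
Log2 fold change with DTT of *eno1*, *ynk1* and *glo2* on glucose (GD/GC, circles) and lactose (LD/LC, squares) in Rut-C30 (blue) and Δ*res2* (red), from the fit of all 16 libraries; bars are standard errors. All values are below 0, those on lactose are lower than those on glucose, and *glo2* has the smallest changes, from -1.28 to -2.18.

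All 3 genes had a larger fall with DTT on lactose than on glucose, but the difference did not pass the test. Averaged over the strains the change on lactose minus that on glucose was -1.69 ± 0.47 for *eno1* (adjusted p = 0.0544), -1.09 ± 0.62 for *ynk1* (adjusted p = 0.338) and -0.77 ± 0.46 for *glo2* (adjusted p = 0.362), and 3.79% of all genes were called lower. The 95% confidence intervals ran from -2.74 to -0.65, from -2.47 to 0.28 and from -1.78 to 0.24. The value of *eno1* passed with DESeq2 (-1.76, adjusted p = 0.00336), with the size factors of DESeq2 in edgeR (-1.76, adjusted p = 0.0496) and without each of 5 glucose libraries in turn (Rut-C30 GC replicate 1, Rut-C30 GD replicate 2, Δ*res2* GC replicate 2 and both GD replicates of Δ*res2*), and that of *ynk1* passed without Δ*res2* GD replicate 2 (-1.45, adjusted p = 0.0386).

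The cultures with DTT were also compared directly between the carbon sources. This comparison shares them with the one above and also holds any difference present without DTT. For the parent strain, and so partly for the mean, it also holds whatever the numbering of its glucose libraries marks. In LD/GD the mean over the strains, a comparison added after the data were seen, was lower for *eno1* (-1.68 ± 0.34, adjusted p = 0.0101) and *ynk1* (-2.39 ± 0.46, adjusted p = 0.00795) and was -0.58 ± 0.33 for *glo2* (adjusted p = 0.264), with 8.01% of all genes called lower. The strains gave -1.48 ± 0.48 and -1.88 ± 0.49 for *eno1* (adjusted p = 0.133 and 0.0606, Rut-C30 first) and -1.86 ± 0.64 and -2.91 ± 0.67 for *ynk1* (adjusted p = 0.157 and 0.0473). Thus 1 of these 4 values passed on its own, that of *ynk1* in Δ*res2*, where 1.51% of genes were called lower (1.54% in Rut-C30). It was lost without Δ*res2* GD replicate 1 (-1.33, adjusted p = 0.134), the culture with 13479 counts, and without either Δ*res2* LD replicate, and the mean of *ynk1* was -1.59 without the same GD culture. The mean of *eno1* was past the threshold except without either Rut-C30 LD replicate or without Δ*res2* LD replicate 2 (-1.64 to -1.70, adjusted p of 0.0514 to 0.0592), and that of *ynk1* except without the last of these.

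Without DTT no difference between lactose and glucose was detected for *eno1* and *glo2*. The limit from the numbering of the parent's glucose libraries applies here too. In LC/GC the log2 difference of *eno1* was 0.02 ± 0.47 for the parent and 0.00 ± 0.47 for Δ*res2* (95% confidence interval of the mean over strains, -0.72 to 0.75), and that of *glo2* was 0.30 ± 0.46 and 0.09 ± 0.46. The kinase gene *ynk1* was at -0.85 ± 0.63 (adjusted p = 0.527) and -1.74 ± 0.64 (adjusted p = 0.135), and at -1.29 ± 0.45 over both strains (adjusted p = 0.0720, with 8.26% of genes called lower), with all LC cultures below all GC cultures. None of the 3 genes passed within a strain, where 3.47% (Rut-C30) and 6.12% (Δ*res2*) of all genes changed in either direction. With DESeq2 the value of *ynk1* passed in Δ*res2* (-1.70, adjusted p = 0.0462) and over both strains (-1.23, adjusted p = 0.0245). It also passed in both when Δ*res2* GC replicate 2 was left out (-2.28 and -1.56), and was -0.78 in both without Δ*res2* GC replicate 1.

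Of the 3 genes, *eno1* was the one called different between the strains on lactose, where the duplicates were close. Its counts in LC were 48833 and 47379.8 in Δ*res2* against 29552 and 35926 in Rut-C30, and in LD 3623 and 3257 against 2087 and 1943. Both Δ*res2* cultures lay above both Rut-C30 cultures in each condition. In the 8 lactose libraries alone, Δ*res2* was 1.46-fold higher in LC (log2 fold change 0.54 ± 0.10, adjusted p = 0.00246) and 1.76-fold higher in LD (0.82 ± 0.11, adjusted p = 0.000107) by the quasi-likelihood test of edgeR with Benjamini-Hochberg adjustment. In that fit 7.99% and 9.82% of all genes tested were called higher in Δ*res2* in LC and LD, and 93.3% and 96.1% had a lower value than *eno1*.

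In the fit of all 16 libraries, which shares 1 estimate of the spread with the glucose cultures, the same values were 0.56 ± 0.47 in LC and 0.77 ± 0.47 in LD and did not pass (adjusted p = 1 in both). There 0.022% of all genes in LC and 0.011% in LD passed in either direction. Averaged over LC and LD, added after the data were seen, the strain difference of *eno1* was 0.68 ± 0.08 in the lactose libraries alone (adjusted p = 8.32e-06, with 12.5% of genes called higher) and 0.66 ± 0.33 with all 16 libraries (adjusted p = 1, with 0.0549% of genes called in either direction). In the lactose libraries alone it stayed between 0.61 and 0.75 when each of the 8 libraries was left out in turn, with an adjusted p of at most 0.000413, and the values of LC and LD kept their calls as well (at most 0.0332 and 0.00687).

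Neither of the other genes showed such a difference. In the lactose libraries alone *ynk1* differed by -0.05 ± 0.08 in LC and -0.03 ± 0.09 in LD, with 95% confidence intervals from -0.22 to 0.12 and from -0.21 to 0.15. For *glo2* the values were 0.06 ± 0.07 and -0.10 ± 0.07, with intervals from -0.09 to 0.21 and from -0.26 to 0.05. In this fit the intervals do not reach the values of *eno1*. With all 16 libraries they were wider and did, from -1.41 to 1.33 (LC) and from -1.45 to 1.30 (LD) for *ynk1* and from -0.94 to 1.08 and from -1.16 to 0.86 for *glo2*.

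**Figure D3:**
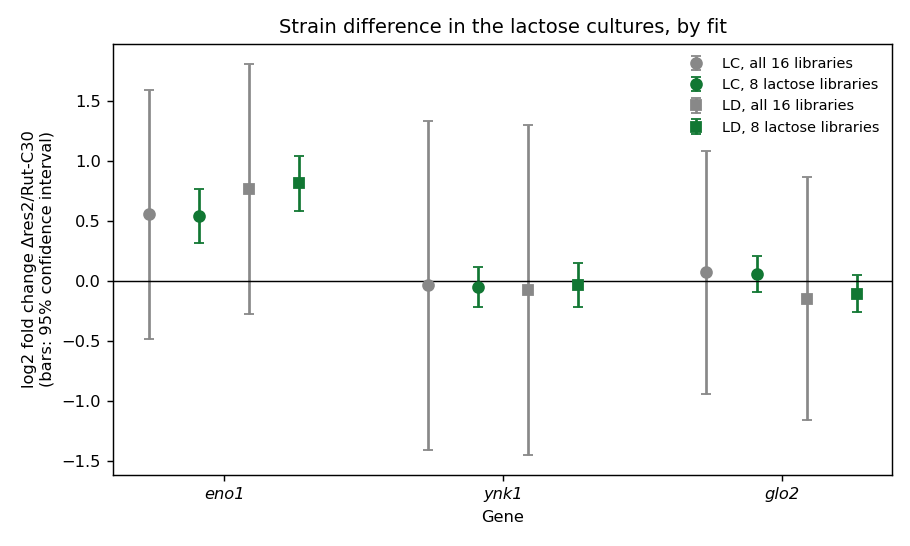
Log2 fold change of Δ*res2* over Rut-C30 in LC (circles) and LD (squares) for *eno1*, *ynk1* and *glo2*, from the fit of all 16 libraries (grey) and of the 8 lactose libraries alone (green); bars are 95% confidence intervals. The values hardly move between the fits and the intervals narrow, so that those of *eno1* from the lactose libraries alone (0.54 in LC and 0.82 in LD) lie above 0 and those of the other genes include 0.

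The ratio of *eno1* to *ynk1* per length, which does not depend on the scaling of the libraries, is given as a description. In Rut-C30 it was 0.926 and 1.13 in LC and 1.10 and 0.973 in LD, and in Δ*res2* it was 1.62 and 1.48 in LC and 1.92 and 1.81 in LD. On lactose the strains thus did not overlap in this ratio, with and without DTT. On glucose it ran from 0.283 to 1.30 in Rut-C30 and from 0.272 to 2.89 in Δ*res2*, so that the strains overlapped.

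On glucose the strain differences of *eno1* had the same sign but were within the error. They were 0.58 ± 0.47 in GC (adjusted p = 0.781) and 1.18 ± 0.48 in GD (adjusted p = 0.379), and the 2 GD cultures of Δ*res2* (11796 and 13564) lay above those of Rut-C30 (8328 and 2889.8). For *ynk1* the values were 0.86 ± 0.63 and 0.97 ± 0.63, with overlapping cultures in both conditions, and for *glo2* 0.29 ± 0.46 and 0.25 ± 0.46. No call was made for the 3 genes, where 0.033% (GC) and 0.0549% (GD) of all genes passed in either direction. Leaving out Δ*res2* GD replicate 1 turned the value of *ynk1* in GD to -0.58, and leaving out replicate 2 raised it to 1.70 (adjusted p = 0.0319).

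The response to DTT itself was not shown to differ between the strains. On glucose, with all 16 libraries, the GD/GC change of Δ*res2* minus that of Rut-C30 was 0.60 for *eno1* (95% confidence interval -0.87 to 2.06), 0.11 for *ynk1* (-1.83 to 2.05) and -0.03 for *glo2* (-1.46 to 1.40). On lactose, in the lactose libraries alone, the difference of the LD/LC changes was 0.27 for *eno1* (-0.05 to 0.59, adjusted p = 0.416), 0.02 for *ynk1* (-0.23 to 0.26) and -0.16 for *glo2* (-0.38 to 0.05), with 2.61% of genes called higher. With all 16 libraries the lactose intervals were wider, from -1.25 to 1.68, from -1.98 to 1.90 and from -1.65 to 1.21, and with the glucose libraries alone those on glucose were from -1.60 to 2.79, from -2.65 to 2.84 and from -2.06 to 2.00. With all 16 libraries edgeR called no gene (0%) for these differences, with 474 genes on glucose and 66 on lactose at an unadjusted p under 0.05. DESeq2 called 15 genes on glucose and 0 on lactose, and voom 0 and 171, none of them *eno1*, *ynk1* or *glo2*.

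Genes that share a functional term with the 3 described here mostly fell with DTT as well. The lists hold the genes that the study's supplementary tables give for glycolytic process, purine-containing compound metabolic process and aldehyde catabolic process, all chosen by the study as changed in these samples, so that their direction is not independent evidence. The supplement names no enzyme for them. Of the 4 other genes of glycolytic process, 4 fell with DTT on glucose and 4 on lactose in the mean over strains (edgeR, adjusted p under 0.05), with medians of -1.69 and -2.34 against -0.08 and -0.06 over all genes tested. Of all genes tested, 29.8% fell on glucose and 30.3% on lactose. TrB0153C, the most abundant of them, changed by -1.61 ± 0.37 on glucose and -2.39 ± 0.38 on lactose, and TrB0201C by -2.45 ± 0.40 and -2.72 ± 0.40. The change of *eno1* on lactose (-3.91) was beyond that of all 4, which ranged from -2.72 to -2.16.

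Of the 9 genes of purine-containing compound metabolic process other than *eno1* and *ynk1*, which include the same genes apart from TrB0153C, 9 fell on glucose (median -1.87) and 8 on lactose (median -2.16). The background was again 29.8% and 30.3% of all genes tested. Not all of the 9 genes had the larger change on lactose. TrB1442W changed by -2.42 ± 0.20 on glucose and -1.37 ± 0.19 on lactose, a difference that passed the test (1.04 ± 0.27, adjusted p = 0.0394), and TrA0973C by -2.31 ± 0.32 and -1.01 ± 0.31 (difference 1.29 ± 0.44, adjusted p = 0.101). *ynk1* had the largest fall of the list in both carbon sources. The 1 other gene of aldehyde catabolic process, TrF0962C, changed by -1.74 ± 0.24 on glucose and -2.49 ± 0.25 on lactose, where *glo2* changed by -1.30 and -2.07.

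In the lists, too, several genes were higher in Δ*res2* on lactose, by less than *eno1* in the mean over LC and LD. In this mean, from the lactose libraries alone, 1 of the 4 other genes of glycolytic process was higher in Δ*res2*, TrB0153C at 0.21 ± 0.06 (adjusted p = 0.0215), and the other 3 lay between -0.05 and 0.13 and did not pass. Among the 9 purine-containing compound genes 3 were higher, TrB1442W at 0.48 ± 0.06 (adjusted p = 1.94e-05), TrA0034W at 0.41 ± 0.08 (adjusted p = 0.00363) and TrG0707C at 0.29 ± 0.07 (adjusted p = 0.0109). The background was 12.5% of all genes called higher. These 3 were higher in LD, TrB1442W by 1.02 ± 0.08, and not called in LC, where TrB1442W was at -0.07 ± 0.08, whereas *eno1* was called in both. In LD alone 4 of the 9 genes were called higher and none lower, against 9.82% of all genes called higher. The one besides these 3 was TrA0973C (0.69 ± 0.18, adjusted p = 0.035 by edgeR), which was at -0.52 ± 0.17 in LC and not called there. TrB0153C was also called in LD (0.29 ± 0.09, adjusted p = 0.0338) and not in LC (0.12 ± 0.08). In the mean over LC and LD, TrF0962C differed by 0.03 ± 0.05.

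**Figure D4:**
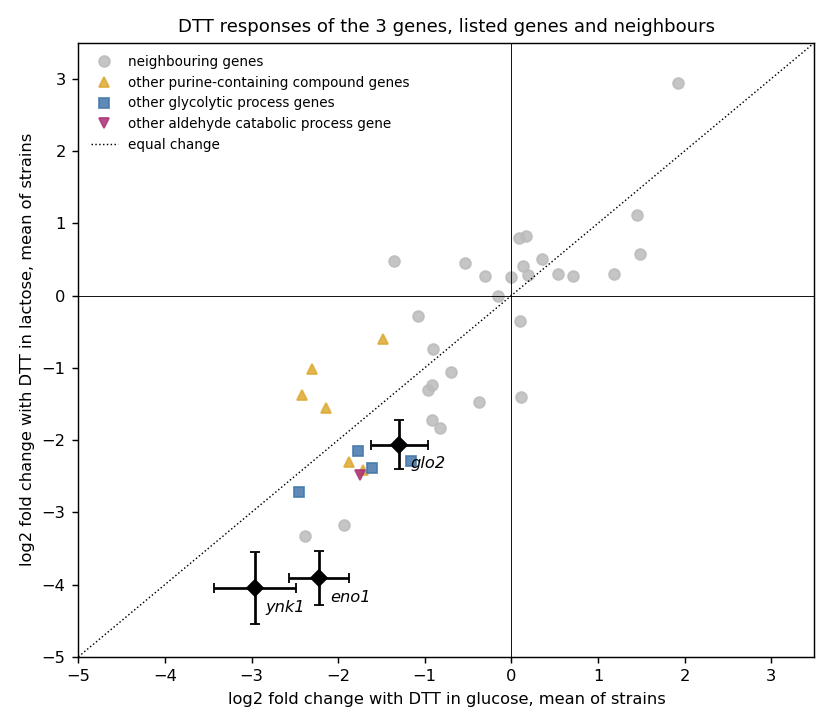
Log2 fold change with DTT on lactose (vertical) against glucose (horizontal), each the mean of both strains, for *eno1*, *ynk1* and *glo2* (black, with standard errors), the other genes of the 3 listed processes and the neighbouring genes on the chromosomes (grey); the dotted line marks equal change. The 3 genes lie below the line, *eno1* at -2.22 and -3.91, while the neighbours lie on both sides of 0.

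The genes beside the 3 on the chromosomes are given with the background of 29.8% (glucose) and 30.3% (lactose) of all genes that fell. The shares of all genes that rose were 24.8% (glucose) and 27.1% (lactose). Of the 5 genes on either side of *eno1*, 2 fell and 3 rose with DTT on glucose and 1 fell and 3 rose on lactose, in the mean over strains. TrA1057C, next to the 3′ end of *eno1*, changed by 0.17 ± 0.16 on glucose and 0.83 ± 0.16 on lactose, and TrA1056W beyond it rose by 1.92 ± 0.22 and 2.94 ± 0.23. Around *ynk1* 8 of the 10 genes could be tested, of which 3 fell on glucose and 5 on lactose, with none higher and medians of -0.54 and -1.15. TrA0343W, which ends 150 bp from *ynk1*, changed by -0.92 ± 0.25 and -1.24 ± 0.25. Around *glo2*, 5 of 10 fell and 1 rose on glucose and 4 fell and 2 rose on lactose, with medians of -0.42 and -0.04.

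The nearest gene on the other side of *eno1* was TrA1059W (TRIREDRAFT_120570), singled out after its values were seen. It lies on the plus strand from 3404618 to 3405028 of chromosome I, so that it and *eno1* are transcribed away from each other from either side of a gap of 947 bp. The sources used here give it no name. On lactose without DTT it had 1237 and 1175 normalized counts in the Rut-C30 cultures and 1702 and 1730.0 in those of Δ*res2*. With DTT it had 144 and 108 in Rut-C30 and 209.5 and 196 in the deletion strain. The order of the lactose groups was thus that of *eno1*, with both Δ*res2* cultures above both Rut-C30 cultures in each condition.

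TrA1059W changed with DTT by -1.94 ± 0.43 on glucose (adjusted p = 0.00286) and -3.17 ± 0.45 on lactose (adjusted p = 0.000141). Its strain difference in the lactose libraries alone was 0.50 ± 0.09 in LC (adjusted p = 0.00163) and 0.73 ± 0.13 in LD (adjusted p = 0.00117), beside 0.54 and 0.82 for *eno1*. Of the 10 neighbours of *eno1*, 3 were higher in Δ*res2* in the mean of LC and LD, TrA1059W at 0.61 ± 0.08, TrA1055W at 0.47 ± 0.07 and TrA1054W at 0.25 ± 0.08, against a background of 12.5%. The latter 2 were called in LC, at 0.79 ± 0.10 (adjusted p = 6.14e-05) and 0.53 ± 0.11 (adjusted p = 0.00461), and not in LD (0.14 and -0.026). Their change with DTT on lactose (LD/LC, mean over strains) was 0.29 ± 0.35 and 0.57 ± 0.45, and neither was called. For the strain difference in LD alone, 2 of the 10 neighbours were called higher in the lactose libraries, against 9.82% of all genes. These were TrA1059W and TrA1060C (0.43 ± 0.10, adjusted p = 0.00682 by edgeR), and TrA1060C was not called in LC (-0.05 ± 0.10). Another neighbour of *eno1*, TrA1063W, was called lower in LC (-0.24 ± 0.07, adjusted p = 0.0415 by edgeR), against 5.94% of all genes. In the mean of LC and LD, 2 of the 8 tested neighbours of *ynk1* were called higher and 1 lower. Of the 10 neighbours of *glo2*, 0 were higher and 2 lower, against 9.85% of all genes called lower. On glucose TrA1059W had 1940.0 and 501 normalized counts in GC of Rut-C30 and 2566 and 1854 in GC of Δ*res2*, and 504 and 282 in GD of the first and 236 and 701 in GD of the second strain, with overlapping groups.

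The levels of the 3 genes followed each other closely on lactose. Over the 8 lactose libraries Pearson's r of log2 CPM was 0.9818 for *eno1* and *ynk1*, 0.9782 for *eno1* and *glo2* and 0.9977 for *ynk1* and *glo2*. Over the 8 glucose libraries it was 0.7567, 0.5841 and 0.6576. These are descriptions of points that share libraries and are split in each carbon source by the presence of DTT.

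Over all 16 libraries 129 of the 9101 genes had an r above 0.9 with *eno1*, 441 with *ynk1* and 358 with *glo2*. The gene most like *eno1* was TrG0733C (TRIREDRAFT_75468, r = 0.97, Spearman's rho = 0.96), which changed by -3.68 ± 0.41 with DTT on glucose and -4.80 ± 0.44 on lactose. Second was TrE0499C (r = 0.97), with -1.01 ± 0.24 and -1.76 ± 0.24. The gene most like *ynk1* was TrC0612C (TRIREDRAFT_55205, r = 0.99, rho = 0.94), with -1.33 ± 0.23 and -2.15 ± 0.23, and the one most like *glo2* was TrB0525C (TRIREDRAFT_62703, r = 0.98, rho = 0.92), with -1.75 ± 0.29 and -2.40 ± 0.30. None of the 5 genes most like *eno1* lay on its chromosome, and none of the lists for *ynk1* or *glo2* held one of the other genes described here.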

How the data were processed

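The deposited files held raw counts for 10008 genes in 16 libraries, as whole numbers with no normalization. According to the methods and notes of the authors, single reads of strand-specific poly(A) libraries were trimmed and filtered, aligned to the QM6a genome with STAR 2.7.8a, freed of reads with several alignments and counted on coding sequences with HTSeq 0.5.3; the strand setting of the counting was not given in the sources used here, and the fed-batch time at sampling differs between the methods and the series description. The authors tested with DESeq2 1.8.1. Gene positions came from the annotation that was deposited with the counts (9847 of the genes). Groups and replicate numbers were taken from the sample labels, and no columns of other samples were used.

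Counts were fitted with edgeR 4.0.16 (limma 3.58.1, R 4.3.3): filterByExpr (9101 genes), TMM factors, a mean for each of the 8 groups, robust estimateDisp and glmQLFit, the quasi-likelihood F test, and Benjamini-Hochberg adjustment over all genes within each comparison. The standard error was the absolute log2 fold change divided by the square root of F, and a change was called at an adjusted p under 0.05. RPKM used the summed coding length. Correlations used log2 CPM with a prior count of 2. The 3 genes, the lists (the study's supplementary gene lists, and 5 neighbours on either side) and the comparisons were chosen with earlier results of these data known, and so were the rules for named genes (these genes, the lists and the 5 genes most correlated with each). The means over strains of LC/GC and LD/GD, the mean strain difference of LC and LD, and, for the lactose libraries alone, the leave-one-out fits and the lists were chosen after seeing the data.

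Alternatives were DESeq2 1.42.0, its size factors used in edgeR, no filter beyond 1 count per gene, the replicate number as a block, limma voom with sample quality weights, only the libraries of the comparison or of the carbon source, the limits for DEGs, and each library left out. The edgeR, DESeq2 and voom fits were tested on simulated counts. These gave each gene the same spread in all 16 libraries. They therefore cannot show how the fits behave under the unequal spread of the glucose and lactose cultures.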

Additional observations from a re-analysis of the deposited data

How the results depend on the processing

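The falls of *eno1* and *ynk1* in LD/LC, and those of *eno1*, *ynk1* and *glo2* in the mean over strains on lactose, kept their direction and call under every alternative run. All other values are listed where an alternative changed them. With DESeq2, GD/GC of *glo2* in Rut-C30 (-1.21), LC/GC of *ynk1* in Δ*res2* (-1.70) and over strains (-1.23), LD/GD of *eno1* (-1.48 in Rut-C30, -1.88 in Δ*res2*) and *ynk1* (-1.85 in Rut-C30) and the lactose minus glucose response of *eno1* (-1.76) passed. With its size factors in edgeR the last of these passed (-1.76) and GD/GC of *glo2* in Δ*res2* did not (-1.22), nor did it with all genes of at least 1 count (-1.28), where LD/GD of *ynk1* in Δ*res2* was lost too (-2.87). With voom, *glo2* in GD/GC of Rut-C30 (-1.20), LD/GD of Rut-C30 for *eno1* (-1.29) and *ynk1* (-1.86), LC/GC of *ynk1* over strains (-1.14) and the strain difference of *eno1* in LD (0.77) and over LC and LD (0.66) passed, whereas GD/GC of *eno1* (-1.94) and *glo2* (-1.53) and LD/GD of *ynk1* (-2.52) in Δ*res2* did not; the LC/GC value of *eno1* in Δ*res2* (-0.0077) and the strain difference in GD/GC of *ynk1* (-0.088) changed sign near 0.

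With only the libraries of the comparison, GD/GC of *eno1* in Rut-C30 (-2.45), of *eno1* (-1.91), *ynk1* (-2.90) and *glo2* (-1.30) in Δ*res2*, LD/GD of *ynk1* in Δ*res2* (-2.91) and the glucose mean of *glo2* (-1.20) did not pass; LD/GD of *ynk1* in Rut-C30 (-1.85) and the strain difference of *eno1* in LC (0.57), LD (0.81) and over both (0.68) did, and the strain difference in LD/LC of *ynk1* turned to 0.016. With the libraries of the carbon source, GD/GC was lost for *eno1* (-2.43 in Rut-C30, -1.83 in Δ*res2*), *ynk1* (-2.92 and -2.83) and *glo2* (-1.22 in Δ*res2*), and *eno1* differed between strains in LC (0.54) and LD (0.82). The limits for DEGs left out GD/GC of *ynk1* (-3.02 in Rut-C30, -2.90 in Δ*res2*), of *eno1* (-1.92) and *glo2* (-1.31) in Δ*res2*, LD/LC of *glo2* in Rut-C30 (-1.96) and LD/GD of *ynk1* in Δ*res2* (-2.91). The cause of these changes was not tested.

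The replicate numbers were not taken to pair the cultures: same-numbered deviations of 28 pairs of groups correlated from -0.271 to 0.625 (GC with GD of Rut-C30), with 6 above 0.1. With the replicate number as a block, GD/GC of *glo2* in Rut-C30 passed (-1.26), LD/GD of *ynk1* in Δ*res2* did not (-2.82) and LC/GC of *eno1* in Δ*res2* turned to -0.017; it changed no other call.

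Leaving out each library in turn changed a call or a sign for these values, which then ran as follows. In GD/GC Rut-C30 -3.32 to -2.47 for *ynk1*, -1.72 to -0.50 for *glo2*. In LC/GC Rut-C30 -0.33 to 0.71 for *eno1*, -0.12 to 1.08 for *glo2*. In DTT lactose minus glucose, mean of strains -2.05 to -1.21 for *eno1*, -1.58 to -0.34 for *ynk1*. In Δ*res2*/Rut-C30 in GC -0.013 to 1.39 for *ynk1*, -0.16 to 1.04 for *glo2*. In DTT response Δ*res2* minus Rut-C30 in glucose -0.050 to 1.55 for *eno1*, -1.48 to 0.98 for *ynk1*, -0.94 to 0.51 for *glo2*. In LC/GC, mean of strains -0.13 to 0.39 for *eno1*, -1.56 to -0.78 for *ynk1*. In LD/GD Rut-C30 -0.71 to 0.072 for *glo2*. In Δ*res2*/Rut-C30 in GD -0.58 to 1.70 for *ynk1*, -0.66 to 0.83 for *glo2*. In LD/GD, mean of strains -1.96 to -1.20 for *eno1*, -2.75 to -1.59 for *ynk1*. In LD/LC Rut-C30 -1.999 to -1.90 for *glo2*. In Δ*res2*/Rut-C30 in LC -0.078 to 0.0076 for *ynk1*. In DTT response Δ*res2* minus Rut-C30 in lactose -0.085 to 0.0015 for *ynk1*. In GD/GC Δ*res2* -4.44 to -1.98 for *ynk1*, -2.22 to -0.72 for *glo2*. In LC/GC Δ*res2* -0.096 to 0.23 for *eno1*, -2.28 to -0.78 for *ynk1*, -0.073 to 0.36 for *glo2*. In LD/GD Δ*res2* -1.96 to -1.77 for *eno1*, -3.63 to -1.33 for *ynk1*, -1.31 to 0.14 for *glo2*.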
